A study of Mus musculus with 160 samples.

Results

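The 37 genes described here are the core of the BMP and TGF-beta signaling pathway, taken by gene symbol from a table of 46078 mouse genes: 10 ligands, 5 secreted antagonists and modulators, 11 receptors and co-receptors, 6 receptor-regulated and common Smads, 2 inhibitory Smads and 3 Id genes. They were measured by RNA-seq in pools of 20 cells sorted from the aorta-gonads-mesonephros (AGM), the region of the mouse embryo in which the first hematopoietic stem cells arise. All embryos, those of the GFP- pools included, were Gata3-GFP +/-, that is, they carried 1 allele in which GFP reports Gata3; whether that allele still makes GATA3 is not stated in the sources used here. Endothelial cells (ECs; Cdh5+, CD41-, CD45-) and hematopoietic cells (HCs; sorted on CD41 and CD45) came from E10.5 embryos, and mesenchymal cells (MCs; Pdgfrb+) and cells of the sympathetic nervous system (SNS; Ngfr+, also called p75) from E11.5 embryos, each sorted into a GFP+ and a GFP- population of 20 pools. Embryos were pooled before sorting, the E10.5 cells came from 3 to 5 such replicates, and the labels do not tie a pool to a replicate, so that errors and p-values cover the spread between pools, some of which may be technical. Cell type and stage cannot be told apart between the E10.5 and the E11.5 populations, and no test was made across them.

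Ligands of the family bind pairs of type I and type II receptors, which are serine/threonine kinases. BMP receptors (Bmpr1a, Bmpr1b, Acvr1, Acvrl1 with Bmpr2, Acvr2a or Acvr2b) phosphorylate Smad1, Smad5 and Smad9. TGF-beta receptors (Tgfbr1 with Tgfbr2) and activin receptors (which include Acvr2a and Acvr2b) phosphorylate Smad2 and Smad3. Both groups of Smads enter the nucleus with Smad4. Smad6 and Smad7 block this relay and are themselves induced by it, and the Id genes, which encode inhibitors of basic helix-loop-helix factors, are the classical direct targets of BMP. In the AGM, BMP4 is known to be made below the dorsal aorta, and endothelial cells are known to depend on Acvrl1, its co-receptor endoglin (Eng) and Bmpr2.

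The 250 bases before the start sites of 3 members are shown because Smad6 did not overlap between GFP+ and GFP- ECs, Eng marks the endothelium, and Bmp4 differed in opposite directions in ECs and HCs. They were taken from RefSeq (GRCm38.p6; 26 of the 37 members had an entry used here), are written 5′ to 3′ on the strand of the gene, and carry in capitals each match to CAGAC, the short Smad box, or GGCGCC, a GC-rich element bound by BMP Smads, on either strand (GTCTG is the first word read on the other strand).
Smad6, minus strand, chr9:64022060-64022309: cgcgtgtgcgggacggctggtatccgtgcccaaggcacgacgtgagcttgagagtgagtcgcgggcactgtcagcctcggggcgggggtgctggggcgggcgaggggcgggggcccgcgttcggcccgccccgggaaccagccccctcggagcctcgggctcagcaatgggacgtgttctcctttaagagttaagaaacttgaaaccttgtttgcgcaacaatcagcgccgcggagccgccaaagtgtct
Eng, plus strand, chr2:32646345-32646594: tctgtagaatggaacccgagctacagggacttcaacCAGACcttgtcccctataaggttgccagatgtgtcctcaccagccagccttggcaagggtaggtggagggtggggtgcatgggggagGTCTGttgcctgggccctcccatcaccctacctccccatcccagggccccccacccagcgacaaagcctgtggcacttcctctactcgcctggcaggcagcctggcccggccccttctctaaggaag
Bmp4, minus strand, chr14:46390670-46390919: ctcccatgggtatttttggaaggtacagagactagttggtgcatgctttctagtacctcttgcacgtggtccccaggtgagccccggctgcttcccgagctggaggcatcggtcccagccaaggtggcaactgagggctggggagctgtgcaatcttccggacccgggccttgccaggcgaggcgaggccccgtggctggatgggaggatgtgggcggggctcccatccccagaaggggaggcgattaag
Eng held the Smad box at 2 places, the farther beginning 214 bases before the start. Smad6 and Bmp4 held neither word in this window. Of all 32851 promoters in the table, 42.2% held the Smad box and 9.59% the GC-rich element in the same 250 bases, against 13 and 8 of the 31 promoters of the 26 members. The word AGATAA, which GATA factors bind, was searched in the same way and found in 1 of the 31 and in 9.99% of all promoters. These are matches of letters and no evidence of binding.

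Of the 160 pools, 7 failed the limits on reads and were left out, and the others held between 1400824 and 16004756 counts on genes. The EC and HC markers were highest in the pools so labelled. At E11.5, 12 of the 74 passing pools went against their labels, 3 in each population. In the order of the deposited counts, they were the last 3 of each E11.5 population. The 6 libraries labelled MC had summed SNS markers (Ngfr, Phox2a, Th, Dbh, Sox10) of 665 to 2634 CPM (counts relative to the TMM-scaled total of the library), where the other 31 MC libraries had 1.70 to 26.3, and summed MC markers (Pdgfrb, Pdgfra, Col1a1, Col1a2, Col3a1, Twist1) of 79.8 to 693 CPM, where the others had 2128 to 5162. Conversely, the 6 libraries labelled SNS had 10.7 to 24.4 CPM of SNS markers against 329 to 1673 in the other 31, and 2357 to 4931 CPM of MC markers against 98.3 to 889.6 (plot of marker sums). These 12 libraries were kept under their labels in the tests that follow, the E11.5 calls are given with and without them, and the E11.5 ranges and medians are over the 62 other pools unless stated.

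**Figure D1:**
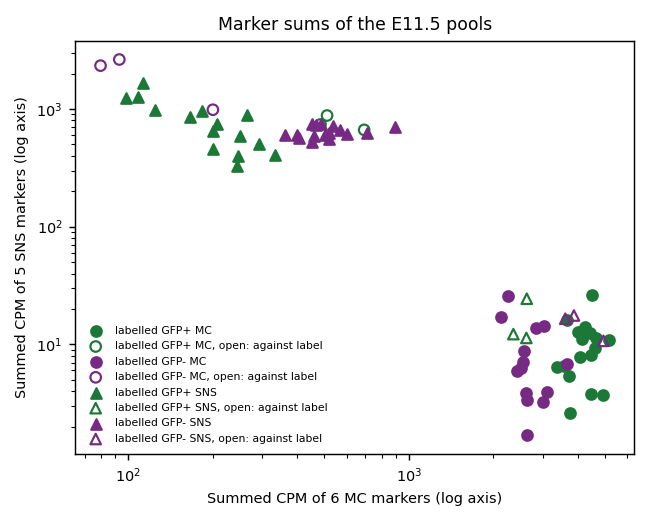
Summed CPM of 6 MC markers (x axis, log) against summed CPM of 5 SNS markers (y axis, log) in the 74 passing E11.5 pools; circles are libraries labelled MC, triangles those labelled SNS, green is GFP+ and purple GFP-. The 12 open symbols lie with the other label: 6 circles at 665 CPM or more of SNS markers, and 6 triangles at 24.4 CPM or less.

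Gata3, the gene whose reporter was sorted on, checked the GFP labels. In ECs its level ranged from 28.5 to 174 CPM in GFP+ and 4.37 to 29.6 CPM in GFP- pools, and in HCs from 12.7 to 148.9 and 1.78 to 12.9 CPM, with medians of 78.005, 10.47, 45.1 and 7.03; in both cell types only the ends of the ranges met. Over the 62 other E11.5 pools, GFP+ and GFP- pools did not overlap either in MCs (19.7 to 70.5 against 2.52 to 19.04 CPM) or in SNS (111.2 to 306 against 11.2 to 94.04 CPM). The 3 libraries labelled Gata3-GFP- MC held 122.7 to 395 CPM of Gata3 and those labelled Gata3-GFP+ SNS only 9.97 to 24.3 CPM, which lay outside the range of the other pools with the same label. Those labelled Gata3-GFP+ MC held 16.3 to 82.3 CPM and those labelled Gata3-GFP- SNS 44.4 to 50.2 CPM. Why these libraries went against their labels was not tested. With all 74 pools, Gata3 did not pass the test in MCs (log2 fold change -0.66 ± 0.52 SE, adjusted p = 0.496), and without the 12 it rose by 1.88 ± 0.22 (adjusted p = 8.98e-08).

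The pathway was transcribed in all 4 cell types, most broadly in mesenchyme. Of the 37 members, 32 reached 10 counts in 50% or more of the pools of each MC population, against 24 and 21 in GFP+ and GFP- ECs, 24 and 20 in GFP+ and GFP- HCs, and 25 and 27 in GFP+ and GFP- SNS. Per kilobase of exon, Id3 was the highest member in all 8 populations, with mean levels from 38.1 CPM per kb in GFP- HCs to 1060.0 CPM per kb in GFP+ MCs (all pools). At the other end Inhbb, the activin beta B subunit, reached 10 counts only in 4 pools, all labelled GFP- SNS, where it ranged from 0 to 13.3 CPM.

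In endothelium, more members were higher than lower in GFP+ pools. Of the 26 members with enough counts to be tested, 15 rose and 4 fell in GFP+ ECs, 7 passing in neither direction; over all 15073 genes tested, 19.5% rose and 16.5% fell. With size factors from the ERCC spike-in RNAs, which moved the median of all genes by -0.70, 8 members rose and 6 fell. Both inhibitory Smads, the BMP type I receptor Bmpr1a, the ligand Bmp6 and the BMP-binding protein Bmper rose most, while the ligands Bmp2 and Bmp4 and the BMP Smads Smad1 and Smad5 fell. The median log2 change of the 26 was 0.70, against 0.10 for all genes tested. Bmp6 entered the test through GFP+ pools, so the filter partly set its direction. Bmper had no counts in many GFP- pools, so the same may hold for Bmper. In pools, a difference in the share of cells that express a gene and a difference in RNA per cell cannot be told apart.

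Smad6, which blocks BMP receptors and Smad1, ranged from 83.7 to 150.2 CPM in the 19 GFP+ pools (median 110.4) and from 0.26 to 28.96 CPM in the 20 GFP- pools (median 5.70). Its lowest GFP+ pool lay above its highest GFP- pool, and the log2 fold change was 3.77 ± 0.30 (SE; adjusted p = 5.16e-14); the gene lies at chr9:63953076-64022059 (GRCm38). Smad7, the inhibitor that acts on both branches, ranged from 46.6 to 217 CPM (median 96.7) in GFP+ and from 7.24 to 35.2 CPM (median 17.3) in GFP- ECs, again with no overlap (2.55 ± 0.19, adjusted p = 6.76e-15). Bmpr1a was the third member without overlap: 24.4 to 115.1 CPM in GFP+ pools (median 56.1) and 0.37 to 13.2 CPM in GFP- pools (median 2.06), a log2 fold change of 4.23 ± 0.31 (adjusted p = 6.53e-15). The share of all genes tested without overlap between these groups was not computed, so whether this count is unusual was not tested. GFP- ECs held less of this receptor than any other population: 13.2 CPM in their highest pool, where the lowest of all other pools, a GFP- HC pool, held 13.01 CPM.

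**Figure D2:**
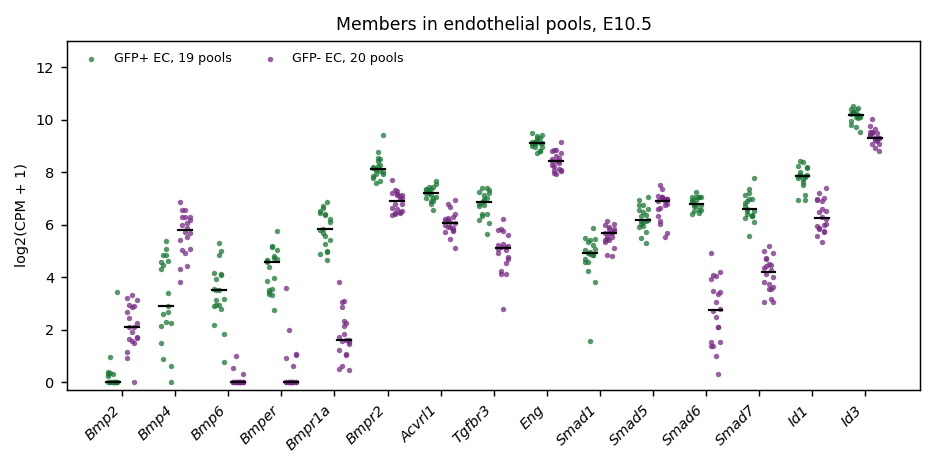
Level of 15 members in each EC pool, as log2(CPM + 1); green points are the 19 GFP+ and purple points the 20 GFP- pools, and black bars are medians. Smad6, Smad7 and Bmpr1a do not overlap between the groups, and Bmp2, Bmp4, Smad1 and Smad5 lie lower in GFP+ pools.

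Among the ligands, the direction differed from gene to gene. Bmp6 ranged from 0.70 to 38.03 CPM in GFP+ ECs (median 10.4) and did not exceed 1.005 CPM in any GFP- EC pool, so that 18 of 19 GFP+ pools lay above all GFP- pools (6.67 ± 0.54, adjusted p = 8.74e-14; with a group this near 0 the fitted size depends on the prior count). In the other 6 populations its median was 0. Bmp4, by contrast, ranged from 0 to 41.02 CPM in GFP+ (median 6.48) and from 13.2 to 116.6 CPM in GFP- ECs (median 54.5). In 14 of the 20 GFP- pools Bmp4 was above every GFP+ pool (-2.09 ± 0.39, adjusted p = 2.31e-05). Bmp2 was at a median of 0 CPM in GFP+ and 3.31 CPM in GFP- ECs (-2.95 ± 0.70, adjusted p = 0.000583), although the single highest EC pool, at 9.78 CPM, was GFP+. The TGF-beta ligands Tgfb1 (-0.18 ± 0.29, adjusted p = 0.623) and Tgfb2 (0.48 ± 0.20, adjusted p = 0.0498) did not pass. Bmp5, Bmp7, Tgfb3, Inhba and Inhbb had too few counts in ECs to be tested, as had the antagonists Nog, Chrd, Grem1 and Fst. Bmper, a secreted BMP-binding protein, was the only antagonist or modulator tested in ECs. It ranged from 5.81 to 52.7 CPM in GFP+ (median 22.9) and from 0 to 11.1 CPM in GFP- pools (median 0), with a change of 4.46 ± 0.58 (adjusted p = 2.20e-08).

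Of the 11 receptors, 8 rose in GFP+ ECs and none fell, where 19.5% and 16.5% of all genes tested did. Acvr2a and Tgfbr2 were not called, nor was Bmpr1b (adjusted p = 0.019, 0.635 and 0.0321). Bmpr2, the main BMP type II receptor, ranged from 193 to 684 CPM in GFP+ (median 276) and 82.04 to 209 CPM in GFP- ECs (median 117.8; 1.30 ± 0.13, adjusted p = 4.55e-11). Acvrl1, the endothelial type I receptor for BMP9 and BMP10, had medians of 146.8 and 66.6 CPM, and 15 of 19 GFP+ pools lay above all GFP- pools (1.04 ± 0.12, adjusted p = 6.72e-10). Tgfbr3, the co-receptor betaglycan, had medians of 116.4 and 33.3 CPM (1.70 ± 0.19, adjusted p = 9.06e-10). Eng was per kilobase the most abundant receptor in ECs, ranging from 419 to 709 CPM in GFP+ (median 545) and 244 to 558 CPM in GFP- pools (median 339.5); it rose by 0.64 ± 0.09 (adjusted p = 6.10e-08) but turned to -0.073 with ERCC size factors. Acvr1, Acvr2b and Tgfbr1 rose by 0.85, 1.001 and 0.55 on the log2 scale, of which Acvr2b did not pass without the GFP+ pool described below (0.92, adjusted p = 0.0112). With ERCC size factors Acvrl1 (0.41), Acvr1 (0.20), Acvr2b (0.52) and Tgfbr1 (0.0126) did not pass, and Tgfbr2 passed as lower (-0.81).

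The signal-transducing Smads changed less than the inhibitory pair. Smad1 had medians of 28.9 CPM in GFP+ and 50.6 CPM in GFP- ECs (-0.72 ± 0.19, adjusted p = 0.00169), and Smad5 medians of 71.2 and 118.6 CPM (-0.51 ± 0.15, adjusted p = 0.00471); both fell. Smad3, of the TGF-beta branch, rose by 0.64 ± 0.18 (adjusted p = 0.00351), and turned to -0.070 with ERCC size factors. Smad2 (-0.07 ± 0.16) and Smad4 (0.38 ± 0.16) did not pass (adjusted p = 0.734 and 0.049), although Smad2 passed as lower with ERCC size factors (-0.84), and Smad9 had too few counts. Both Id targets tested were called: Id1 ranged from 120.2 to 346 CPM in GFP+ (median 229) and 39.7 to 165 CPM in GFP- ECs (median 75.3; 1.39 ± 0.16, adjusted p = 1.21e-09). Id3 had medians of 1156 and 636 CPM, with 15 of 19 GFP+ pools above all GFP- pools (0.75 ± 0.08, adjusted p = 3.46e-10), but its change was 0.058 and did not pass with ERCC size factors. Id4 did not reach the count limit in ECs.

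The EC markers (Cdh5, Pecam1, Kdr, Tek, Tie1, Emcn) summed to 4163 to 6134 CPM in GFP+ and 2695 to 4203 CPM in GFP- ECs, and all 6 were detected in most pools of both. The 6 MC markers summed to 15.5 to 1489 CPM (median 88.5) in GFP+ and 3.61 to 72.2 CPM (median 15.03) in GFP- ECs, with Pdgfrb and Twist1 at a median of 0 in GFP- pools; their part in these results was not tested. Without the 1 GFP+ EC pool at 1489 CPM of MC markers, 14 members rose and 4 fell.

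Among the other genes of the pathway in ECs, 22 of the 34 tested among 64 listed rose and 2 fell, where 19.5% and 16.5% of all genes tested did. The 3 named by size among genes with counts in most pools were latent TGF-beta binding proteins, which hold the ligand in the matrix. Ltbp4 ranged from 314 to 754 CPM in GFP+ and 1.47 to 42.96 CPM in GFP- pools (5.43 ± 0.27, adjusted p = 2.50e-20), with no overlap. Ltbp1 rose by 4.50 ± 0.28 (adjusted p = 2.40e-17) and Ltbp3 by 4.01 ± 0.52 (adjusted p = 2.05e-08). The TGF-beta-induced matrix gene Tgfbi (-2.54 ± 0.46, adjusted p = 1.31e-05) and Lrrc32, which anchors latent TGF-beta on the cell surface (-1.29 ± 0.33, adjusted p = 0.00114), fell.

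In HCs, 11 of 28 members tested rose in GFP+ pools and none fell, where 17.1% of 16200 genes rose and 9.53% fell; the median change of the 28 was 0.77 against 0.05 for all genes. The largest rises were in Bmp4, in Id4, in the secreted Bmper and in the ligands Bmp5, Bmp7 and Tgfb2. Id4, Bmper and Bmp5 reached the count limit mainly in GFP+ pools, so the filter partly set their direction. Bmp4, Bmp7 and Smad6 had medians near 0 in GFP- pools, so the same may hold for them. This also enters the median of the 28, and the same filter applied to all genes. None of the 28 passed as lower by edgeR; 1, Tgfbr2 (-0.56 ± 0.21), did at an adjusted p under 0.05, and 18 of the 28 had an unadjusted p under 0.05 in either direction. GFP+ HC pools also carried more RNA of markers of other cells: the MC markers summed to 15.3 to 914 CPM (median 307) in GFP+ and 3.37 to 161.1 CPM (median 26.8) in GFP- pools, the SNS markers to as much as 1175 CPM against 8.90 CPM, the epithelial and urogenital markers to medians of 33.4 and 1.46 CPM, and the EC markers to medians of 135.6 and 56.4 CPM. All 6 MC markers were detected in most GFP+ HC pools, and Phox2a, Pax2 and Pax8 had a median of 0. The HC markers summed to 1505 to 4723 CPM (median 2581) in GFP+ and 2668 to 4229 CPM (median 3562) in GFP- pools. The part of these cells or RNAs in the HC results was not tested.

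Bmp4 ranged from 0.53 to 185 CPM in the 20 GFP+ HC pools (median 36.2) and from 0 to 5.98 CPM in the 20 GFP- pools (median 0.30). All but 1 of the GFP+ pools lay above every GFP- pool (6.21 ± 0.54, adjusted p = 1.93e-11, chr14:46383520-46390669). With a GFP- group this near 0, the fitted size depends on the prior count. Bmp7 had medians of 13.4 and 0.20 CPM (2.997 ± 0.69, adjusted p = 0.000591), Tgfb2 medians of 20.5 and 1.16 CPM (2.84 ± 0.53, adjusted p = 3.68e-05), and both ranges overlapped. Bmp5 was sparse, at 10 counts or more in 9 GFP+ pools and 1 GFP- pool (3.81 ± 0.85, adjusted p = 0.000386); 46.7% of its exon bases are shared with Gm26903 on the opposite strand, and the strand setting of the counts is not stated in the sources used here. Bmp2, per kilobase the highest ligand member in GFP- HCs, did not pass (-0.60 ± 0.45, adjusted p = 0.308), nor did Tgfb1 (0.51 ± 0.32, adjusted p = 0.214) or Tgfb3 (1.92 ± 0.75, adjusted p = 0.0393). Bmper rose by 3.92 ± 0.92 (adjusted p = 0.000676) and reached 10 counts in 4 GFP+ pools and 1 GFP- pool.

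**Figure D3:**
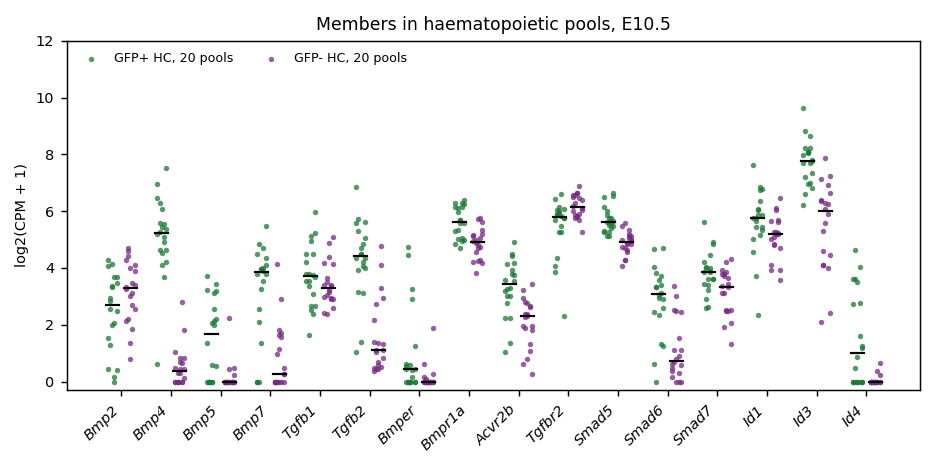
Level of 16 members in each HC pool, as log2(CPM + 1); green points are the 20 GFP+ and purple points the 20 GFP- pools, and black bars are medians. Bmp4 separates all but 1 GFP+ pool from the GFP- pools, while Tgfb1, Tgfbr2 and Smad7 overlap widely.

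Of the 10 receptors tested in HCs, 2 rose and none fell, where 17.1% and 9.53% of all genes tested did. By edgeR, 5 of the 10 had an unadjusted p under 0.05 in either direction. Only Bmpr1a and Acvr2b were called: Bmpr1a ranged from 24.8 to 84.02 CPM in GFP+ (median 48.5) and 13.01 to 52.6 CPM in GFP- HCs (median 29.2; 0.78 ± 0.18, adjusted p = 0.000483; 0.66 and not called with ERCC size factors), and Acvr2b, an activin and BMP type II receptor, had medians of 9.76 and 3.92 CPM (1.503 ± 0.35, adjusted p = 0.000662). The TGF-beta receptors Tgfbr1 (medians 119.6 and 142.9 CPM) and Tgfbr2 (medians 54.3 and 70.02 CPM) were per kilobase among the 3 most abundant receptors in both HC populations and did not pass (adjusted p = 0.288 and 0.0318). Neither did Bmpr2, Acvr1, Acvrl1, Acvr2a, Eng or Tgfbr3, whose changes lay between -0.38 and 0.97.

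Smad5 was the only signal-transducing Smad that passed in HCs, with 33.9 to 97.8 CPM in GFP+ (median 47.7) and 15.8 to 46.8 CPM in GFP- pools (median 29.1; 0.87 ± 0.14, adjusted p = 4.34e-06). Smad1, Smad2, Smad3 and Smad4 had changes between -0.11 and 0.46 and were not called. Smad6 rose (2.13 ± 0.54, adjusted p = 0.00173) from a median of 0.67 to 7.46 CPM, and did not pass without the 3 GFP+ HC pools with more than 500 CPM of summed MC or SNS markers (1.68, adjusted p = 0.0164); Bmper then had too few counts, so that 9 members remained called. Smad7 did not pass (0.76 ± 0.27, adjusted p = 0.0245). Id3 ranged from 73.8 to 792 CPM in GFP+ (median 218) and 3.27 to 233 CPM in GFP- HCs (median 62.6; 1.88 ± 0.37, adjusted p = 7.01e-05), whereas Id1 did not pass (0.74 ± 0.28, adjusted p = 0.0332). Id4 was called (5.72 ± 0.87, adjusted p = 1.35e-06), with 11 GFP+ pools above every GFP- pool and none of the GFP- pools above 0.589 CPM, so that its fitted size depends on the prior count.

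Among the other pathway genes in HCs, 21 of 43 tested rose and 1 fell, where 17.1% and 9.53% of all genes tested did. The BMP-induced homeobox genes Msx2 (5.20 ± 0.67, adjusted p = 6.80e-08) and Msx1 (4.03 ± 0.74, adjusted p = 3.00e-05) were among the 3 named by size. Lrrc32, which fell in ECs, ranged from 0.83 to 141.7 CPM in GFP+ and 0 to 18.5 CPM in GFP- HCs (5.20 ± 0.70, adjusted p = 1.54e-07). The AP-1 gene Junb fell (-0.92 ± 0.22, adjusted p = 0.000906).

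Whether the GFP difference itself differed between ECs and HCs was tested as an interaction, in which 9 of 33 members passed, 4 in the direction of HCs and 5 in that of ECs; over all genes tested, 22.7% passed in either direction. Bmp4 was the extreme, with a difference of 8.30 ± 0.68 (adjusted p = 4.24e-17), since it fell in GFP+ ECs and rose in GFP+ HCs. Bmpr1a (-3.46 ± 0.34, adjusted p = 1.54e-13), Smad7 (-1.79 ± 0.33, adjusted p = 6.75e-06), Bmpr2, Eng and Tgfbr1 had the larger GFP difference in ECs, and Smad5, Tgfb2 and Bmp2 the larger, or the less negative, one in HCs. With ERCC size factors Bmpr1a and Smad7 still passed in the direction of ECs, and Bmpr2 (-0.72), Eng (-0.24), Tgfbr1 (-0.25) and Bmp2 (2.59) did not. The difference for Smad6 did not pass (-1.70 ± 0.57, adjusted p = 0.0148), and that for Bmp2 (2.50 ± 0.77) was lost without the 4 pools high in MC or SNS markers (2.32, adjusted p = 0.0216).

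Between the E10.5 cell types, averaged over GFP, the pathway was lower in HCs: 19 of 33 members were lower and 6 higher than in ECs, against 24% and 26.6% of all genes tested. Eng was lower by the most, from medians of 545 and 339.5 CPM in ECs to 13.7 and 18.8 CPM in HCs (-4.65 ± 0.14, adjusted p = 6.02e-45), followed by Acvrl1 (-3.08 ± 0.19) and Tgfbr3 (-2.97 ± 0.23). Smad6 (-2.84 ± 0.29), Id3 (-2.78 ± 0.20), Smad7 (-1.92 ± 0.17) and Id1 (-1.58 ± 0.16) were lower as well, each with an adjusted p of 5.29e-14 or less. Bmp5, Bmp7, Bmp2, Bmpr1a, Tgfb1 and Tgfbr1 were higher in HCs, by 3.86, 3.13, 2.56, 1.42, 0.78 and 0.56. Bmp5 and Bmp7 had too few counts for the test within ECs and were sparse in GFP- HCs, so their fitted sizes depend on the prior count. Among GFP+ pools alone the median of Bmpr1a was 56.1 CPM in ECs and 48.5 CPM in HCs.

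In mesenchyme, the members called with all pools were inhibitory Smads and Id genes. With all 37 passing MC pools, 4 of 35 members rose in GFP+ MCs, namely Smad6, Smad7, Id3 and Id4, and none fell, where 2.21% of 16026 genes rose and 2.15% fell. Without the libraries against their labels, 7 rose and 1 fell, where 5.52% and 4.89% of 15226 genes did; the 4 were called again, Bmp4, Tgfb2 and Id1 joined them, and Bmp7 fell. By unadjusted p under 0.05 in edgeR, 8 and 16 members differed in the respective fits. Without the 12, the MC markers summed to 3376 to 5162 CPM in GFP+ and 2128 to 3655 CPM in GFP- MCs, and the epithelial and urogenital markers had medians of 22.5 and 55.8 CPM over all passing pools, with Epcam, Cdh1, Pax2 and Pax8 at a median of 0 in both; their part in these results was not tested.

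Smad6 ranged from 7.77 to 69.1 CPM in the 17 GFP+ pools (median 44.5) and 5.15 to 36.1 CPM in the 14 GFP- pools (median 16.98), with a change of 1.17 ± 0.24 in all pools (adjusted p = 0.00106; 1.06 and not called with ERCC size factors) and 1.35 ± 0.25 without the 12 libraries (adjusted p = 0.000122). Smad7 had medians of 66.3 and 33.2 CPM (1.07 ± 0.17, adjusted p = 4.45e-05; 1.18 ± 0.16 without). Id3, at 1691 to 2438 CPM in GFP+ and 1065 to 1739.7 CPM in GFP- MCs, was the most abundant member and rose by 0.44 ± 0.08 (adjusted p = 0.000121; 0.47 ± 0.06 without). Id4 had medians of 29.9 and 10.8 CPM (1.36 ± 0.27, adjusted p = 0.000839; 1.55 ± 0.28 without).

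Id1 shows what the 12 libraries do to a value. It ranged from 179.7 to 391 CPM in GFP+ and 108.6 to 250.1 CPM in GFP- MCs, while the 3 libraries labelled Gata3-GFP- MC that went against their label held 535 to 749 CPM. With these the change was 0.13 ± 0.21 (adjusted p = 0.788), and without them 0.79 ± 0.12 (adjusted p = 7.61e-06). Bmp4 ranged from 180.2 to 427 CPM in GFP+ (median 300.1) and 117.8 to 299 CPM in GFP- MCs (median 139.8), where the 6 libraries against their labels held 5.98 CPM or less. Its change was 0.88 ± 0.52 with them (adjusted p = 0.325) and 0.84 ± 0.13 without (adjusted p = 8.86e-06). Tgfb2 (0.51 ± 0.16; 0.55 ± 0.13 without, adjusted p = 0.00258) and Bmp7 (-0.89 ± 0.72; -2.61 ± 0.70 without, adjusted p = 0.00703) likewise passed only without them.

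The remaining mesenchymal members did not pass in either fit. Bmpr1a, at 103.3 to 201 CPM in GFP+ and 111.4 to 232 CPM in GFP- MCs, differed by -0.09 (95% interval -0.29 to 0.11, without the 12), and Smad1, Smad5 and Smad4 by -0.03, 0.07 and -0.02. The antagonists Grem1, Chrd, Nog, Fst and Bmper were all tested here, and their changes without the 12 lay between -0.25 and 0.67 with adjusted p of 0.643 or more. Bmper was per kilobase the most abundant of them (medians 74.9 and 65.4 CPM), and Grem1 ranged from 0 to 44.9 CPM in GFP+ pools. Tgfb3 (medians 38.6 and 24.7 CPM) and Inhba (medians 20.1 and 9.97 CPM), which were near 0 in ECs and HCs, did not pass (adjusted p = 0.353 and 0.312). Of the other pathway genes in MCs, 4 of 47 rose and none fell with all pools, where 2.21% and 2.15% of all genes tested did. Without the 12, 10 of 45 rose, where 5.52% of all genes tested did. The 3 named by size were Ltbp4 (2.52 ± 0.40, adjusted p = 3.84e-05; 2.50 without), the YAP and TGF-beta target Ccn2 (1.90 ± 0.35, adjusted p = 0.000381; 1.89 without) and the decoy receptor Bambi (1.27 ± 0.17, adjusted p = 3.63e-06; 1.43 without), all called in both fits.

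In the SNS few members were called with all pools under their labels, Id1 as higher and Tgfbr3 and Smad3 as lower in GFP+ pools. With all 37 pools 1 of 34 members rose (Id1) and 2 fell (Tgfbr3 and Smad3), where 2.01% of 16143 genes rose and 1.86% fell; with ERCC size factors only 1, Tgfbr3, fell, and Smad3 (-0.84) did not pass. Without the 12 libraries 1 rose and 6 fell, where 4.94% and 5.48% of 15658 genes did, the 4 added being Bmp2, Bmp7, Bmper and Acvr1; by unadjusted p under 0.05, 9 and 19 members differed. The median change of the members was -0.25 with all pools and -0.33 without the 12, against 0.00 and -0.01 for all genes.

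Id1 ranged from 326 to 729 CPM in the 15 GFP+ pools (median 485) and 144.97 to 389 CPM in the 16 GFP- pools (median 224), a change of 0.91 ± 0.16 with all pools (adjusted p = 0.000286) and 1.12 ± 0.12 without the 12 (adjusted p = 1.94e-08). Id3 was abundant in both (medians 1541 and 1349 CPM) and did not pass (0.08 ± 0.08, adjusted p = 0.644; 0.15 without, adjusted p = 0.217). Tgfbr3 ranged from 0.18 to 8.25 CPM in GFP+ and 16.95 to 65.6 CPM in GFP- pools, which did not overlap once the 12 were left out (-1.84 ± 0.42 with all pools, adjusted p = 0.00378; -3.000 ± 0.30 without, adjusted p = 6.34e-09). Smad3 had medians of 13.4 and 38.97 CPM (-1.11 ± 0.24, adjusted p = 0.00234; -1.47 ± 0.21 without). Acvr1 (medians 16.1 and 28.98 CPM) and Bmp7 (medians 8.30 and 19.5 CPM) passed only without the 12 (-0.90 ± 0.24 and -1.42 ± 0.26, adjusted p = 0.00649 and 0.000144), as did the sparse Bmp2 (-3.76 ± 0.91, adjusted p = 0.00317). Bmper changed sign: it was 0.50 ± 0.90 with all pools (adjusted p = 0.809) and -3.02 ± 0.68 without (adjusted p = 0.00153), since the 3 libraries labelled Gata3-GFP+ SNS that went against their label held 46.4 to 138.3 CPM and the other 15 held 0 to 2.05 CPM. Bmpr1a (-0.0041; 95% interval -0.19 to 0.18), Bmpr2 (-0.05; -0.30 to 0.20) and Smad1 (0.08; -0.23 to 0.39) did not pass, and their changes without the 12 were -0.02, -0.06 and 0.13, with no call.

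GFP- SNS pools held more RNA of MC markers (362 to 889.6 CPM against 98.3 to 333 CPM in GFP+ SNS, without the 12) and of epithelial and urogenital markers (medians of 73.5 and 2.04 CPM over all passing pools, with Cdh1 at a median of 0 in both), and their part in these results was not tested. Among the other pathway genes, 2 of 50 rose and 5 fell with all pools, where 2.01% and 1.86% of all genes tested did. Without the 12, 5 of 48 rose and 14 fell, where 4.94% and 5.48% of all genes tested did. Id2, a further Id gene, rose by 0.66 ± 0.09 (adjusted p = 3.98e-06; 0.69 without). The anti-Müllerian hormone receptor gene Amhr2, at 0 to 1.44 CPM in GFP+ and 0 to 61.95 CPM in GFP- pools (-6.58 ± 0.80, adjusted p = 1.10e-06; -7.30 without), the myostatin gene Mstn (-2.95 ± 0.65, adjusted p = 0.0026; -3.35 without) and the BMP co-receptor Rgma (-2.13 ± 0.30, adjusted p = 1.07e-05; -2.38 without) fell, and these 4 genes were called in both fits.

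**Figure D4:**
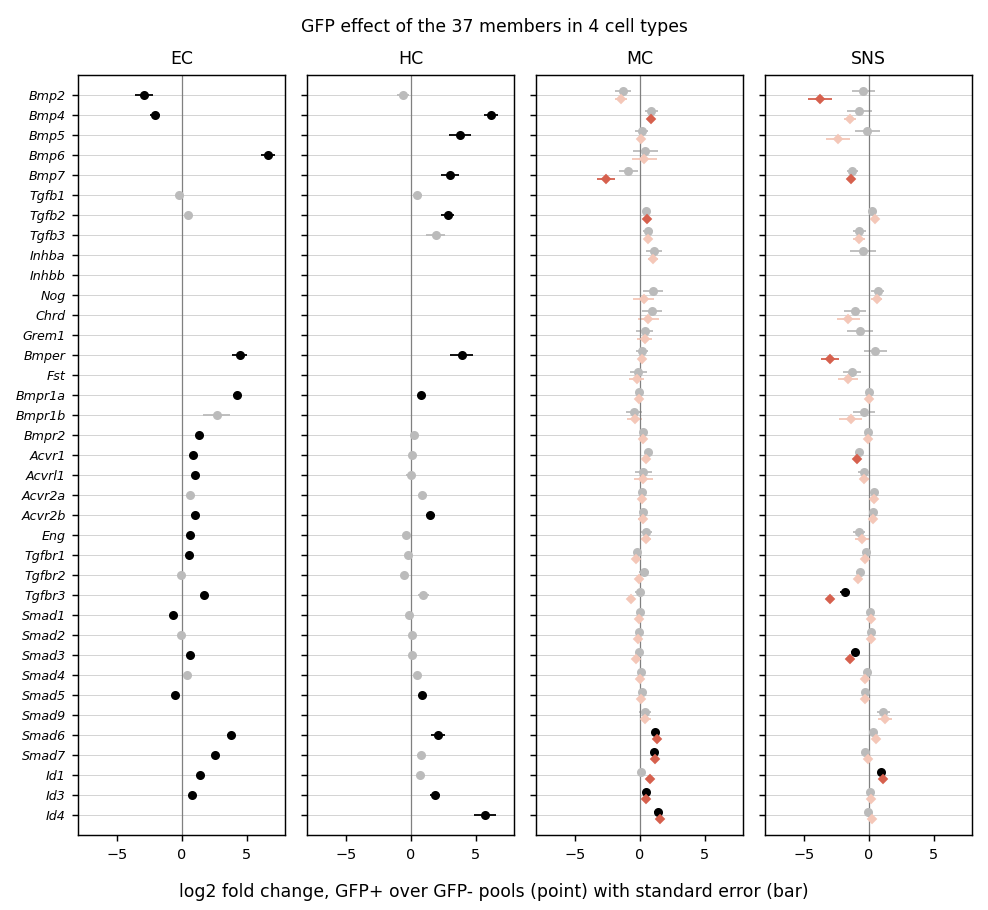
GFP effect (log2 fold change of GFP+ over GFP- pools, x axis) of the 37 members in ECs, HCs, MCs and SNS, with the standard error as a bar. Black circles passed the test and grey circles did not; in MCs and SNS, red diamonds passed and pale diamonds did not pass without the 12 libraries against their labels. A member without a symbol had too few counts. Most calls lie to the right in ECs and HCs, apart from Bmp2, Bmp4, Smad1 and Smad5 in ECs, and Eng and Smad3 in ECs turn to -0.073 and -0.070 with ERCC size factors.

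The E11.5 interaction asked whether the GFP difference differed between SNS and MCs. With all 74 pools 4 of 35 members passed, all lower in the SNS direction, where 9.66% of all genes tested passed; without the 12, 7 passed, where 10.4% did, and 3 were in both sets. Smad7 (-1.40 ± 0.23, adjusted p = 7.08e-06; -1.25 ± 0.22 without), Acvr1 (-1.46 ± 0.32, adjusted p = 0.000604; -1.41 ± 0.33 without) and Id4 (-1.45 ± 0.37, adjusted p = 0.00307; -1.31 ± 0.37 without) passed in both fits, but Smad7 (-0.94) and Id4 (-0.94) did not pass with ERCC size factors. Id3 passed with all pools (-0.38 ± 0.11, adjusted p = 0.00912), not without the 12 (-0.31 ± 0.11, adjusted p = 0.0309), and turned to 0.044 with ERCC size factors.

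Averaged over GFP, several ligands were lower in SNS than in mesenchyme, while Bmp7 was not. With all 74 pools, 14 of 35 members were lower and 1 higher in SNS than in MCs, against 12% and 11.4% of all genes tested; with ERCC size factors 8 were lower and 9 higher; without the 12 libraries, 20 were lower and 5 higher, against 19.7% and 20.5%. Bmp4 stayed at 0.22 to 3.65 CPM in GFP+ and 0.60 to 18.4 CPM in GFP- SNS, while the 6 libraries labelled SNS that went against their label held 121.8 to 309 CPM, and its difference was -2.39 ± 0.58 with all pools and -6.46 ± 0.23 without (adjusted p = 0.000721 and 8.51e-35). Inhba (-5.23), Bmper (-5.06), Bmp6 (-5.04), Bmp5 (-4.75) and Tgfb3 (-2.22) were lower in SNS in both fits, with adjusted p of 0.00281 or less with all pools and these differences without the 12. Acvr2b was the 1 member higher in SNS in both (0.74 ± 0.20, adjusted p = 0.00214; 1.17 ± 0.19 without), and Bmp7 (1.79 ± 0.35), Nog (1.95 ± 0.44), Id1 (0.69 ± 0.09) and Acvr2a (0.56 ± 0.14) were higher only without the 12. The smaller decreases of Bmpr1a (-0.24), Bmpr2 (-0.45), Tgfbr1 (-0.40) and Smad7 (-0.42) with all pools turned to 0.29, 0.038, 0.094 and 0.11 with ERCC size factors, which moved the median of all genes by 0.48.

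Read across the 8 populations, the members fall into different patterns. Bmp4 was highest in GFP+ MCs (289 ± 66.8 CPM, mean ± SD, n = 17), then GFP- MCs (160.3 ± 50.7, n = 14), GFP- ECs (56.4 ± 27.997, n = 20) and GFP+ HCs (48.2 ± 43.1, n = 20), the last pair differing by less than the SD of either, followed by GFP+ ECs (13.5 ± 12.8, n = 19), and it was lowest in both SNS populations and GFP- HCs. Smad6 was highest in GFP+ ECs (112.8 ± 18.6, n = 19), where every pool exceeded every pool of the other 7 populations, the highest of which held 69.1 CPM. Smad7 led in GFP+ ECs (107.5 ± 39.3) and GFP+ MCs (70.1 ± 20.9), which differed by less than the SD of the former, while the 2 SNS populations and GFP- MCs lay within 1 SD of each other. Id1 was highest in GFP+ SNS (505 ± 109.95, n = 15), and GFP+ MCs (278 ± 59.6), GFP+ ECs (231 ± 62.9) and GFP- SNS (231 ± 62.7) followed within 1 SD of each other. Bmpr1a stood between 119.8 and 157.96 CPM on average in the 4 E11.5 populations, at 63.2 ± 28.1 and 51.5 ± 19.5 CPM in GFP+ ECs and GFP+ HCs, and at 3.25 ± 3.18 CPM in GFP- ECs. These levels are descriptions across stages, with no test.

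**Figure D5:**
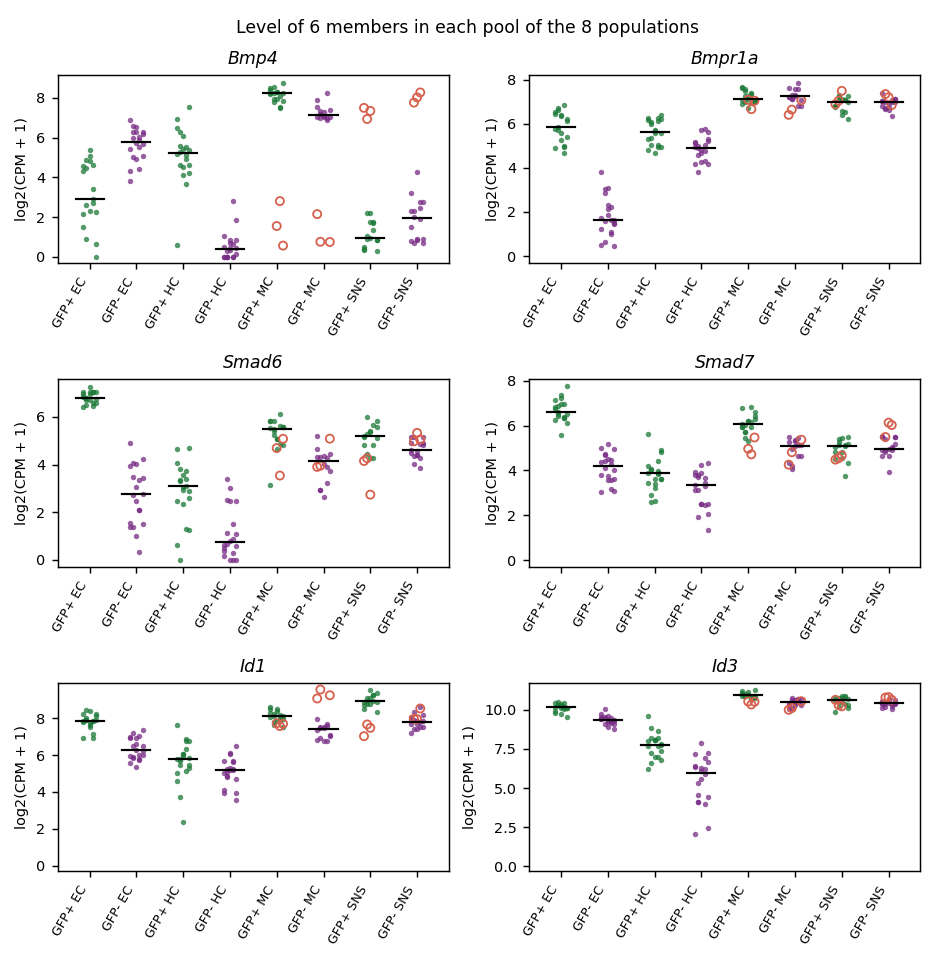
Level of Bmp4, Bmpr1a, Smad6, Smad7, Id1 and Id3 in each passing pool of the 8 populations, as log2(CPM + 1); green is GFP+, purple GFP-, and open red circles are the 12 E11.5 libraries against their labels, which the black median bars leave out. The red circles of Bmp4 lie with the other cell type, and Smad6 is highest in GFP+ ECs.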

How the data were processed

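RNA of pools of 20 sorted cells was made into libraries by Smart-seq2, ERCC RNAs having been spiked in. The deposited values are raw counts of reads per Ensembl gene, which the authors made with HTSeq from 125-base single-end reads; their methods name STAR and Ensembl release 81, whereas the submitters' processing notes list GSNAP 2015-09-29, HTSeq 0.5.3p3 and mm10, and the strand setting is not given in the sources used here. A median of 16.3% of reads were ambiguous, 11.7% fell on no feature and 23.0% were not aligned.

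Pools with over 500000 reads, over 20% of reads on genes, under 20% mitochondrial and under 20% ERCC counts were kept. Those held 1400824 to 16004756 counts; of the 160 pools, 1 GFP+ EC, 3 GFP- MC, 2 GFP+ SNS and 1 GFP- SNS pool were left out. CPM were scaled by TMM. Groups came from the sample labels. Each GFP comparison was fitted within 1 cell type, and the cell types and the interaction within 1 stage, by edgeR 4.0.16's robust quasi-likelihood test over genes that reached 10 counts in 5 or more pools. A gene was called at a Benjamini-Hochberg adjusted p under 0.01 and an absolute log2 change over 0.1; adjusted p in the text are from this test, and ± after a log2 change is its standard error. All 37 members were named whatever their values. Of 64 other pathway genes, up to 3 risen and 3 fallen by size were named per GFP comparison, if called and at 10 counts or more in 75% of pools where they were higher. The members and lists were chosen with earlier results of these data known. Symbols and coordinates came from GENCODE M21 (GRCm38) and promoters from RefSeq GRCm38.p6. 1 SNS marker of the original list is not reported here and was left out of the marker sums. Scripts were tested on simulated data. Over the 4 GFP comparisons, 45.8% to 54.4% of simulated 2-fold changes and 70.6% to 84.2% of 4-fold changes were called. A member that did not pass may thus still differ.

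Alternatives were DESeq2 1.42.0, its size factors, ERCC size factors, no filter on low counts, all 160 pools, an adjusted p under 0.05, and the test named in the study's methods (scanpy 1.11.5, a t-test with overestimated variance on counts normalized by scran 1.30.0). Leaving out the 12 E11.5 libraries against their labels, and the 4 E10.5 pools with over 500 CPM of summed MC or SNS markers, was chosen after seeing the data.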

Additional observations from a re-analysis of the deposited data

Results flagged for a closer look

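The GFP effect, the log2 change of GFP+ over GFP- pools, differed between HCs and ECs for 9 of 33 members by edgeR's interaction test, where 22.7% of all genes tested differed. It was higher in HCs by 8.30 for Bmp4, 2.50 for Bmp2, 2.37 for Tgfb2 and 1.38 for Smad5. It was lower in HCs for Bmpr1a (-3.46), Smad7 (-1.79), Bmpr2 (-1.09), Eng (-1.01) and Tgfbr1 (-0.77). With ERCC size factors Bmp2 (2.59), Bmpr2 (-0.72), Eng (-0.24) and Tgfbr1 (-0.25) did not pass. Bmp2 did not pass without the 4 pools high in MC or SNS markers, while Smad6 then did.

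Between SNS and MCs the GFP effect differed for 4 of 35 members, where 9.66% of all genes tested differed, being lower in SNS for Acvr1 (-1.46), Id4 (-1.45), Smad7 (-1.40) and Id3 (-0.38, which turned to 0.044 with ERCC size factors). Smad7 and Id4 did not pass with those factors either. Id3 did not pass without the 12 libraries against their labels, while Bmp4, Bmper, Tgfbr3 and Smad3 then did.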

How the results depend on the processing

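Of the members' changes that could be compared, 250 of 259 kept direction and side of the threshold with DESeq2, 256 with DESeq2's size factors, 257 with no filter on low counts, 251 with all 160 pools, and all but 3 with the scanpy test, which gave GFP comparisons only. With ERCC size factors, which move the median of all genes, 216 did and 10 turned: Eng -0.073 and Smad3 -0.070 in ECs, Smad2 0.38 in HCs against ECs, Bmpr1a 0.29, Bmpr2 0.038, Tgfbr1 0.094, Smad5 0.44, Smad7 0.11 and Id3 0.36 in SNS against MCs, and Id3 0.044 in the E11.5 interaction. The count of members higher in GFP+ ECs was then 8, of members lower in GFP+ SNS 1, and of genes called 381 in MCs and 1013 in SNS. In SNS against MCs 9 members were then higher and 8 lower, with 8545 genes called. In the E10.5 interaction 2 were lower, and in the E11.5 interaction 1 was higher and 2 lower. No filter on low counts left 2 members higher in SNS than in MCs.

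At an adjusted p under 0.05, 1 member was lower in GFP+ HCs and 5 in GFP+ SNS, 4 were higher in SNS than in MCs, 8 were lower in the E10.5 interaction, and 1 was higher and 9 lower in the E11.5 interaction. The genes called were then 1514 in MCs, 1334 in SNS and 2961 in the E11.5 interaction. Without the 12 libraries against their labels, 7 members rose and 1 fell in MCs, 6 fell in SNS, 5 were higher in SNS than in MCs and 7 were lower in the E11.5 interaction, with 1585, 1631 and 6963 genes called in MCs, in SNS and between them. Bmper turned to -3.02 in SNS and to -3.14 in the interaction.

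No paired analysis was possible because the columns of the table carry no pool numbers, so that pool numbers in the labels could not be matched across groups. Where 1 group is near 0, the fitted fold depends on the prior count. Such cases include Bmp6 and Bmper in ECs, Bmp4, Bmp5, Bmper and Id4 in HCs, and Amhr2 in SNS. Through its level in GFP- HCs, this also holds for Bmp4 in the E10.5 interaction. Bmp5 and Bmp7 in HCs against ECs are further cases, through their low levels in ECs and GFP- HCs. The cause of the other shifts was not tested.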
